A study of Mus musculus with 9 samples.

Results

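The 36 genes described here encode enzymes of cholesterol and fatty acid synthesis in the mouse, the factors that control them, and the exporters that carry sterols out of cells. They were chosen by name, as the rows of the deposited count table whose gene symbol matched a list of 36, out of 47729 genes in all. RNA had been sequenced from cultured cells that originate in the subventricular zone, the stem cell layer beside the lateral ventricles of the brain. The libraries labelled NF1 (cultures 1 to 3) come from tumour cells that derive from neural stem cells and have the genotype shp53, Nf1-/-, CDK4. The LTR libraries (cultures 1 to 3) come from such tumour cells with the genotype lgT/Ras. The NSC libraries (cultures 1, 3 and 5) come from wild-type primary neural stem cells, and all cultures were kept under standard neural stem cell conditions for up to 10 passages. Which tumour group corresponds to the series' line GSC1 or GSC2, and whether the cultures of a group were transformed separately, is not stated in the labels.

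Cholesterol is built from acetyl-CoA through mevalonate and farnesyl pyrophosphate to squalene, which is then closed into a ring system and trimmed to cholesterol. The same acetyl-CoA feeds fatty acid synthesis, whose products are lengthened by elongases and given double bonds by desaturases. SREBP transcription factors, held in the endoplasmic reticulum by Insig proteins when sterols are plentiful, switch on the synthesis genes, while the liver X receptors (LXR) sense oxysterols and switch on sterol exporters and the gene of SREBP-1. Brain cells make nearly all of their own cholesterol, because lipoproteins of the blood do not cross the blood-brain barrier.

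The promoters of 28 of the 36 genes could be matched in a RefSeq table (build GRCm38.p6) of windows that run from 250 bases before to 50 bases after each start site. Windows were searched on both strands for CCAAT, the box bound by NF-Y, a factor that works together with SREBPs, and for CACNCCA, the core letters of a sterol regulatory element. CCAAT was present in 20 of 28 genes (71.4%), against 41.1% of all 27025 genes of the table. It was found in 9 of 9 genes of the steps from squalene to cholesterol, 5 of 6 genes of the mevalonate steps, 4 of 5 of SREBP control and sterol transport, 2 of 5 of fatty acid synthesis and 0 of 3 of LXR and sterol export. CACNCCA was present in 6 of 28 genes (21.4%), close to the 20.6% of all genes, and 5 of 28 (17.9%, against 7.7%) held both motifs in 1 window. The motifs share bases in the window of Insig2. Read 5′ to 3′ along the gene with matches in capitals (ATTGG is CCAAT on the other strand), the next lines give the windows of a pair of sterol synthesis genes that were higher in LTR than in NSC libraries (Idi1 and Msmo1), of the sterol synthesis gene that was lower (Hmgcs1), and of a sterol exporter (Abca1). The windows lie at chr13:8885356-8885655 (plus strand) for Idi1, chr8:64733529-64733828 (minus strand) for Msmo1, chr13:119690101-119690400 (plus strand) for Hmgcs1 and chr4:53159846-53160145 (minus strand) for Abca1.
Idi1: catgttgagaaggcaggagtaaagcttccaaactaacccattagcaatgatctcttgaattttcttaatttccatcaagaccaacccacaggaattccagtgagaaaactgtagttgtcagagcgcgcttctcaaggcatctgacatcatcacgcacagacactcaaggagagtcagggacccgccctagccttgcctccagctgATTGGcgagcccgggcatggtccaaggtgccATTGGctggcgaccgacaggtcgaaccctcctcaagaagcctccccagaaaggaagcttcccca
Msmo1: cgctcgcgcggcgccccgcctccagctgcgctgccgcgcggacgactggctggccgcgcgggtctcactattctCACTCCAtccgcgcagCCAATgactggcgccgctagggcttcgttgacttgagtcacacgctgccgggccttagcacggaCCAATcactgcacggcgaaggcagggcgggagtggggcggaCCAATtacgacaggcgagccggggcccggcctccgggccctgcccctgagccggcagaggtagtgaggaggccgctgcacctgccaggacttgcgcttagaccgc
Hmgcs1: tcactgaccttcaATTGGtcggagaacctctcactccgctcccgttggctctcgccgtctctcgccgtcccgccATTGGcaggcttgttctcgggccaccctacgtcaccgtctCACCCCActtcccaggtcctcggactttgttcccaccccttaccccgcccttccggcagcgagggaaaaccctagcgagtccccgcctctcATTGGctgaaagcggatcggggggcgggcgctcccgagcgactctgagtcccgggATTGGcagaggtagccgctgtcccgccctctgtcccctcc
Abca1: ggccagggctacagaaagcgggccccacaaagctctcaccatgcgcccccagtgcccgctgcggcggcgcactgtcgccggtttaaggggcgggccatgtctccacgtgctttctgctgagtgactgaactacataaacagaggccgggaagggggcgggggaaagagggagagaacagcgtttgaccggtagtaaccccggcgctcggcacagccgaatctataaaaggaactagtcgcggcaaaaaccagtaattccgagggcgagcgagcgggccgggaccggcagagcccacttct
The Idi1 window held CCAAT letters starting 45 and 14 bases before the start site, and the Msmo1 window held them 160, 96 and 55 bases before it with CACTCCA at 176. The Hmgcs1 window held 4 CCAAT matches and CACCCCA 136 bases before the start site, no fewer of these letters than the Idi1 and Msmo1 windows. Acat2, also higher in LTR but not shown, held 2 CACNCCA matches and 0 CCAAT matches. Whether these letters go with the direction of a gene was not tested. The Abca1 window held none of them, which says only that these letters are not in that window.

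Total counts ran from 28600479 to 57231024 per library. Levels are given as CPM, counts scaled to a common library size with TMM factors between libraries. Differences come from 1 edgeR quasi-likelihood model of all 9 libraries, as log2 fold changes with their standard error (SE), and a gene was called at a Benjamini-Hochberg adjusted p under 0.05 over the 15696 genes tested. All 36 members had enough counts to be tested, Abcg1 through the NSC libraries alone. The p-values measure the spread between 3 cultures of a group, all NSC libraries carry 1 lane number in the file headers and all tumour libraries another, and lane and group cannot be told apart. The NF1 2 library stood apart, with correlations of log CPM of 0.936 and 0.911 with the libraries labelled NF1 1 and NF1 3, which correlated at 0.981. It was closer to NSC libraries (0.886 to 0.892) than NF1 1 and NF1 3 were (0.806 to 0.840). NSC 3 also stood apart, at 0.958 and 0.953 with NSC 1 and NSC 5, which correlated at 0.991. Trp53, which the shp53 label names, had 217, 151 and 221 CPM in the libraries labelled NF1, against 107, 114 and 101 CPM in NSC libraries (log2 fold change 0.87 ± 0.20 SE, adjusted p = 0.0141, edgeR), which goes against a lowered Trp53 transcript. Nf1 had 59.0, 97.2 and 40.1 CPM in them, against 110, 82.5 and 114 CPM in NSC libraries (-0.64 ± 0.35, adjusted p = 0.205), and Cdk4 had 795, 393 and 1124 CPM, against 334, 456 and 325 CPM (1.05 ± 0.34, adjusted p = 0.0530), with NF1 2 within the NSC range of both genes. LTR libraries differed from NSC in the same directions. They had 223, 281 and 255 CPM of Trp53 (1.23 ± 0.20, adjusted p = 0.00258, edgeR) and 80.0, 40.3 and 58.0 CPM of Nf1 (-0.78 ± 0.35, adjusted p = 0.107). Their Cdk4 levels were 1015, 935 and 1020 CPM (1.41 ± 0.35, adjusted p = 0.0135). These differences are therefore not particular to the NF1-labelled libraries.

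In LTR against NSC libraries, 7 of the 36 members were higher and 8 lower, while 21 were not called. Of all genes tested, 14.9% were higher and 20.9% lower, so the share of members called in either direction was near the background of 35.9%. The 7 higher genes all belong to the 18 genes of sterol synthesis, and none of them was called without NSC 1 or without NSC 5. Of the 8 lower genes 7 lie outside sterol synthesis, in SREBP control, fatty acid desaturation, LXR and sterol export, and the difference between roles was not tested. In libraries labelled NF1 against NSC libraries, 1 member was higher and 7 were lower, against 10.1% and 13.1% of all genes (23.1% in either direction), and 28 were not called. The lower counts include Abcg1, which had enough counts in NSC libraries only and so had to differ; without it they are 6 for NF1-labelled and 7 for LTR libraries. All libraries of the group lay below all NSC libraries for 12 of 36 members in both comparisons, against 23.7% of all genes for NF1-labelled and 32.0% for LTR libraries. Each 12 also includes Abcg1, for which this outcome was fixed in advance. The median log2 fold change over the 36 members was -0.15 for NF1 and -0.01 for LTR, beside 0.00 and -0.06 over all genes tested. Both comparisons use the same NSC libraries. Because these are bulk cultures, fewer cells of a type and less RNA per cell cannot be told apart.

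**Figure D1:**
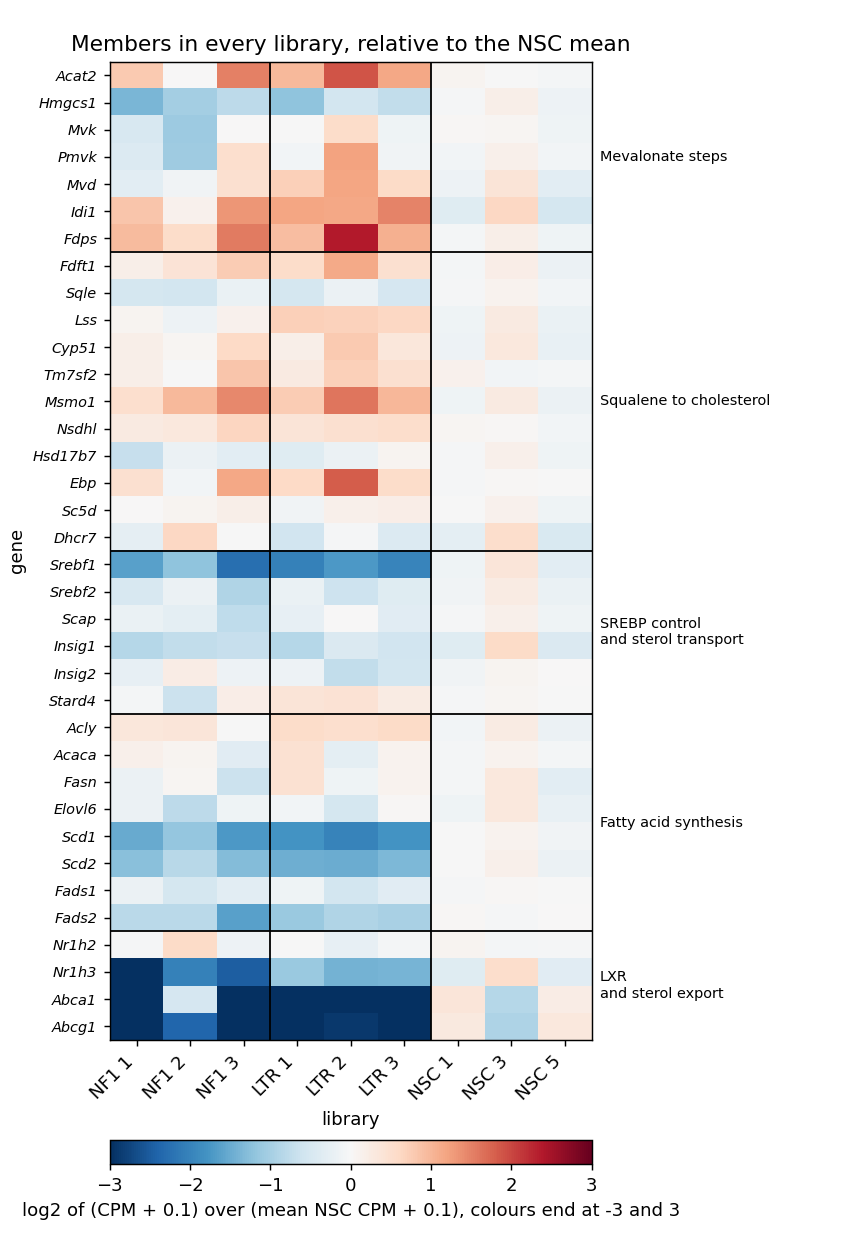
Each row is a gene, grouped by role, and each column a library; colour gives log2 of CPM over the mean CPM of the NSC libraries, with 0.1 CPM added to both. Srebf1, Scd1, Scd2 and Fads2 are blue in all 6 tumour libraries, Abca1 is dark blue in 5 of them and pale in NF1 2, and the sterol synthesis rows are reddest in LTR 2 and NF1 3.

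The members together took 1.04% to 1.17% of all counts in libraries labelled NF1 and 1.15% to 1.18% in LTR libraries, against 1.54% to 1.77% in NSC libraries, and the ranges do not overlap. Most of that gap lay in the paired stearoyl-CoA desaturase genes. Scd1 and Scd2 summed to 2708 to 3815 CPM in libraries labelled NF1 and 2363 to 2637 CPM in LTR libraries, against 6418 to 7925 CPM in NSC libraries. Without that pair the other members summed to 7413 to 8580 CPM in libraries labelled NF1 and 8453 to 10550 CPM in LTR libraries, against 8284 to 10380 CPM in NSC libraries, with overlapping ranges. Per kilobase of the longest annotated transcript, Scd2 was the most abundant member at a mean level of 461 CPM per kb in libraries labelled NF1, 370 in LTR and 997 in NSC libraries. Second in level came Msmo1 in libraries labelled NF1 and in LTR libraries (233 and 255 CPM per kb), and Scd1 in NSC libraries (352 CPM per kb). Abcg1 was the least abundant, at 0.023, 0.014 and 0.355 CPM per kb in the NF1-labelled, LTR and NSC libraries.

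Of the 7 genes of the mevalonate steps, 0 were higher and 1 lower (Hmgcs1) in libraries labelled NF1 than in NSC libraries, and 4 were higher (Acat2, Mvd, Idi1 and Fdps) and 1 lower (Hmgcs1) in LTR libraries. Of all genes, 10.1% were higher and 13.1% lower in libraries labelled NF1, and 14.9% and 20.9% in LTR libraries. The same shares belong beside the counts of each role group below, which were not tested against them. Fdps, which makes farnesyl pyrophosphate, had 424, 325 and 652 CPM in libraries labelled NF1 1, 2 and 3, 416, 1154 and 464 CPM in LTR 1, 2 and 3, and 213, 247 and 201 CPM in NSC 1, 3 and 5. Every tumour library lay above every NSC library, and LTR 2 lay far above the other LTR libraries. The log2 fold change against NSC was 1.08 ± 0.41 (SE) in libraries labelled NF1 (adjusted p = 0.0835, edgeR) and 1.62 ± 0.41 in LTR libraries (3.08-fold, adjusted p = 0.0158). The gene (ENSMUSG00000059743) lies at chr3:89093588-89101959 on the minus strand (GRCm38, GENCODE M21, as for all gene positions given here). Its exons overlap those of Gm43738 on the same strand by 1124 bases, so how reads there were counted is uncertain.

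Acat2, a cytosolic acetyl-CoA acetyltransferase that joins acetyl-CoA units at the start of the pathway, had 343, 200 and 564 CPM in libraries labelled NF1, 392, 743 and 444 CPM in LTR libraries and 210, 197 and 191 CPM in NSC libraries. The LTR libraries lay above all NSC libraries (log2 fold change 1.40 ± 0.38, adjusted p = 0.0191, edgeR), whereas NF1 2 lay within the NSC range (0.89 ± 0.37, adjusted p = 0.111). Acat3, a similar gene with which reads could be shared, stayed under 3 CPM in every library. Idi1, the isomerase that makes dimethylallyl pyrophosphate, had 90.0, 55.2 and 127 CPM in libraries labelled NF1, 116, 113 and 142 CPM in LTR libraries and 39.2, 77.9 and 35.4 CPM in NSC libraries. LTR libraries again did not overlap NSC libraries (1.28 ± 0.37, adjusted p = 0.0240, edgeR), and the difference of NF1-labelled libraries was 0.83 ± 0.36 (adjusted p = 0.124).

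Mvd, the decarboxylase that makes isopentenyl pyrophosphate, had 53.3, 61.4 and 92.9 CPM in libraries labelled NF1, 109, 152 and 99.5 CPM in LTR libraries and 59.6, 86.8 and 52.9 CPM in NSC libraries. It was higher in LTR (log2 fold change 0.86 ± 0.28, adjusted p = 0.0420, edgeR) and overlapped NSC libraries in those labelled NF1 (0.06 ± 0.28, adjusted p = 0.896). The mevalonate kinases Mvk and Pmvk, which phosphorylate mevalonate in turn, had log2 fold changes of -0.45 and -0.17 in libraries labelled NF1 and of 0.17 and 0.47 in LTR libraries, none of them called.

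Hmgcs1, the cytosolic HMG-CoA synthase, was the 1 gene of these steps called lower, in both comparisons. It had 395, 510 and 597 CPM in libraries labelled NF1, 448, 701 and 613 CPM in LTR libraries and 1006, 1156 and 926 CPM in NSC libraries. All 6 tumour libraries lay below all NSC libraries, with log2 fold changes of -1.04 ± 0.24 in NF1-labelled libraries (2.06-fold lower, adjusted p = 0.0159, edgeR) and -0.81 ± 0.24 in LTR libraries (1.75-fold lower, adjusted p = 0.0281). The call for NF1-labelled libraries was lost without NF1 1, NSC 1 or NSC 3. That for LTR libraries was lost without any 1 of the LTR or NSC libraries, and with the culture number as a block in the model. The sign held in both comparisons. The ratio of Fdps to Hmgcs1 counts within a library was 0.636 to 1.09 in those labelled NF1 and 0.757 to 1.65 in LTR, against 0.211 to 0.218 in NSC. Hmgcs1 (ENSMUSG00000093930) lies at chr13:119690379-119708260 on the plus strand. The antisense gene Gm48342 overlaps Hmgcs1 exons by 557 bases, and the library kit does not keep the strand, so part of the counts may belong to it.

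**Figure D2:**
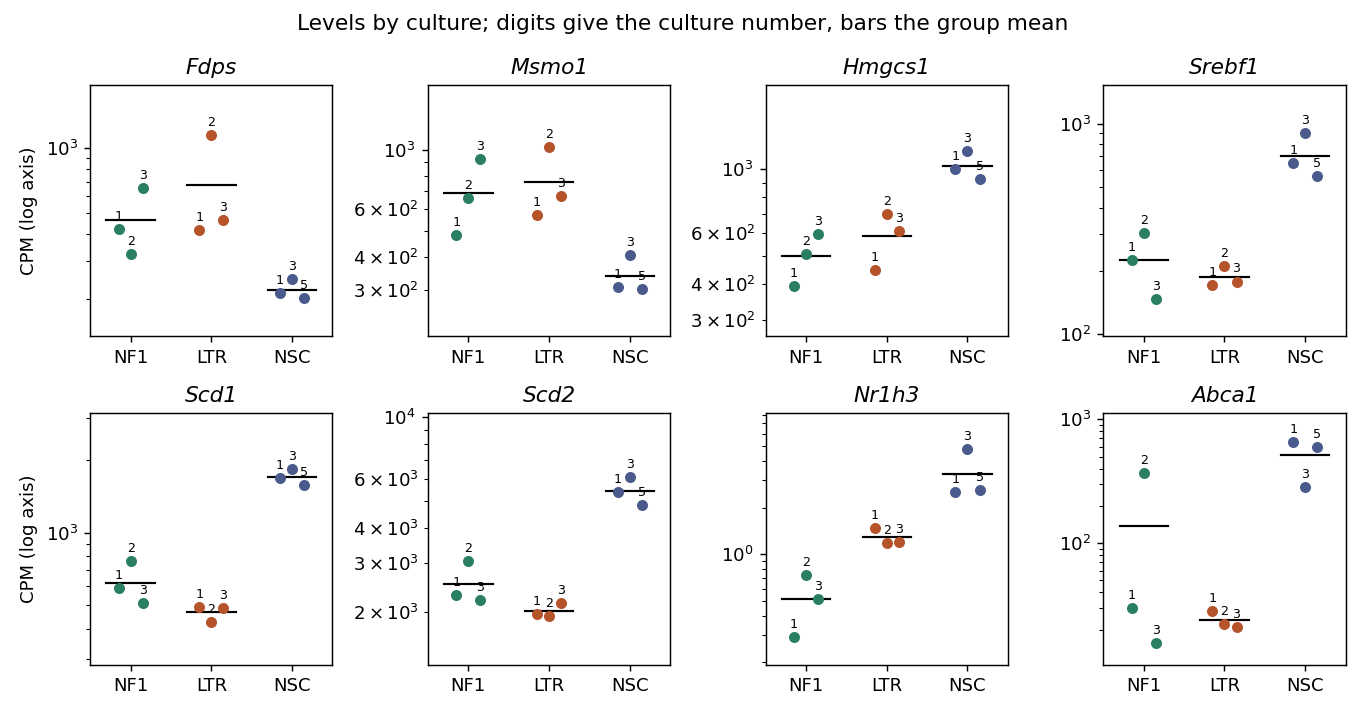
CPM of 8 members in each culture on log axes, with each panel's own range; points are libraries, digits culture numbers and bars group means. Fdps and Msmo1 lie higher in all tumour libraries than in NSC libraries, Hmgcs1, Srebf1, Scd1, Scd2 and Nr1h3 lie lower, and Abca1 of NF1 2 (365 CPM) lies within the NSC range.

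From squalene to cholesterol, 1 of 11 genes (Msmo1) was higher and 0 lower in libraries labelled NF1, and 3 (Fdft1, Lss and Msmo1) were higher and 0 lower in LTR libraries. Msmo1, the oxidase that removes methyl groups at carbon 4 of the sterol ring, had 483, 664 and 924 CPM in libraries labelled NF1, 572, 1029 and 672 CPM in LTR libraries and 307, 407 and 302 CPM in NSC libraries. Every tumour library lay above every NSC library. Msmo1 (ENSMUSG00000031604) lies at chr8:64718139-64733792 on the minus strand. The log2 fold change was 1.03 ± 0.31 for NF1-labelled libraries (2.04-fold, adjusted p = 0.0397, edgeR) and 1.16 ± 0.31 for LTR libraries (2.24-fold, adjusted p = 0.0181). The call for NF1-labelled libraries was lost without NF1 3, NSC 1, NSC 5 or LTR 3. It was also lost with the culture number as a block in the model, and with length and GC trends taken out.

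Lss, the cyclase that folds oxidosqualene into lanosterol, had 182, 156 and 189 CPM in libraries labelled NF1, 283, 279 and 265 CPM in LTR libraries and 159, 210 and 150 CPM in NSC libraries. The LTR libraries were tightly grouped above all other libraries, and those labelled NF1 lay within the NSC range. The log2 fold change was 0.02 ± 0.18 (adjusted p = 0.933, edgeR) for libraries labelled NF1 and 0.67 ± 0.18 (1.60-fold, adjusted p = 0.0200) for LTR libraries. Fdft1, the squalene synthase, averaged 289 ± 61 CPM in libraries labelled NF1, 353 ± 96 CPM in LTR and 209 ± 30 CPM in NSC libraries (SD, n = 3 each), with a call in LTR alone (0.76 ± 0.25, adjusted p = 0.0394, edgeR). A difference between the tumour groups was not called for either gene. Fdft1 exons overlap the antisense gene Ctsb by 774 bases and Lss exons overlap 4930483K19Rik by 381 bases, and these shares of the counts are uncertain.

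The other 8 genes of these steps were not called. Ebp, the sterol isomerase, came near the threshold in LTR libraries (56.5, 130 and 54.9 CPM, against 36.4, 38.4 and 36.7 CPM in NSC libraries), with a log2 fold change of 1.11 ± 0.40 (adjusted p = 0.0523, edgeR). Nsdhl, a dehydrogenase of the carbon 4 demethylation, had 0.46 ± 0.17 (adjusted p = 0.0580). Cyp51, the lanosterol demethylase, and Tm7sf2, a sterol reductase, had 0.30 and 0.38 in libraries labelled NF1 and 0.46 and 0.50 in LTR libraries. Sc5d, the lathosterol desaturase, had 0.09 in NF1-labelled and 0.09 in LTR libraries, Dhcr7, which completes cholesterol from its dehydro form, had 0.16 and -0.33, and Hsd17b7, the ketosteroid reductase, -0.38 and -0.15. Sqle, the epoxidase that takes squalene into the ring-forming steps, had 313, 304 and 387 CPM in libraries labelled NF1 and 310, 396 and 317 CPM in LTR libraries, against 439, 479 and 424 CPM in NSC libraries, all 6 tumour values lying below the NSC values (-0.42 and -0.39, adjusted p = 0.131 and 0.127, edgeR). Exons of Idi1, Cyp51, Srebf1 and Scap also overlap antisense genes, by 323, 166, 109 and 985 bases, and those of Tm7sf2 overlap Vps51 on the same strand by 532 bases, so their counts carry the same uncertainty.

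Over the 18 sterol synthesis genes the median log2 fold change was 0.23 in libraries labelled NF1 and 0.49 in LTR libraries, beside 0.00 and -0.06 over all genes. All libraries lay above NSC for 3 of 18 genes in NF1-labelled and 10 of 18 in LTR libraries, against backgrounds of 18.7% and 26.9%. The 7 LTR calls were lost without NSC 1 or without NSC 5, which each left 0 members higher. With the culture number as a block in the model, 1 was left (Idi1), a run in which NSC 5 again had no weight. Without NSC 3 there were 8, the same 7 with Acly, and without LTR 2 there were 4, while the log2 fold changes of the 7 genes kept their sign under every alternative run. In libraries labelled NF1, leaving out NF1 2 gave 4 members higher (Acat2, Idi1, Fdps and Msmo1). In that run 6900 of 16343 genes were called in either direction. Without NF1 3, NSC 1, NSC 5 or LTR 3, 0 members were higher in libraries labelled NF1.

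**Figure D3:**
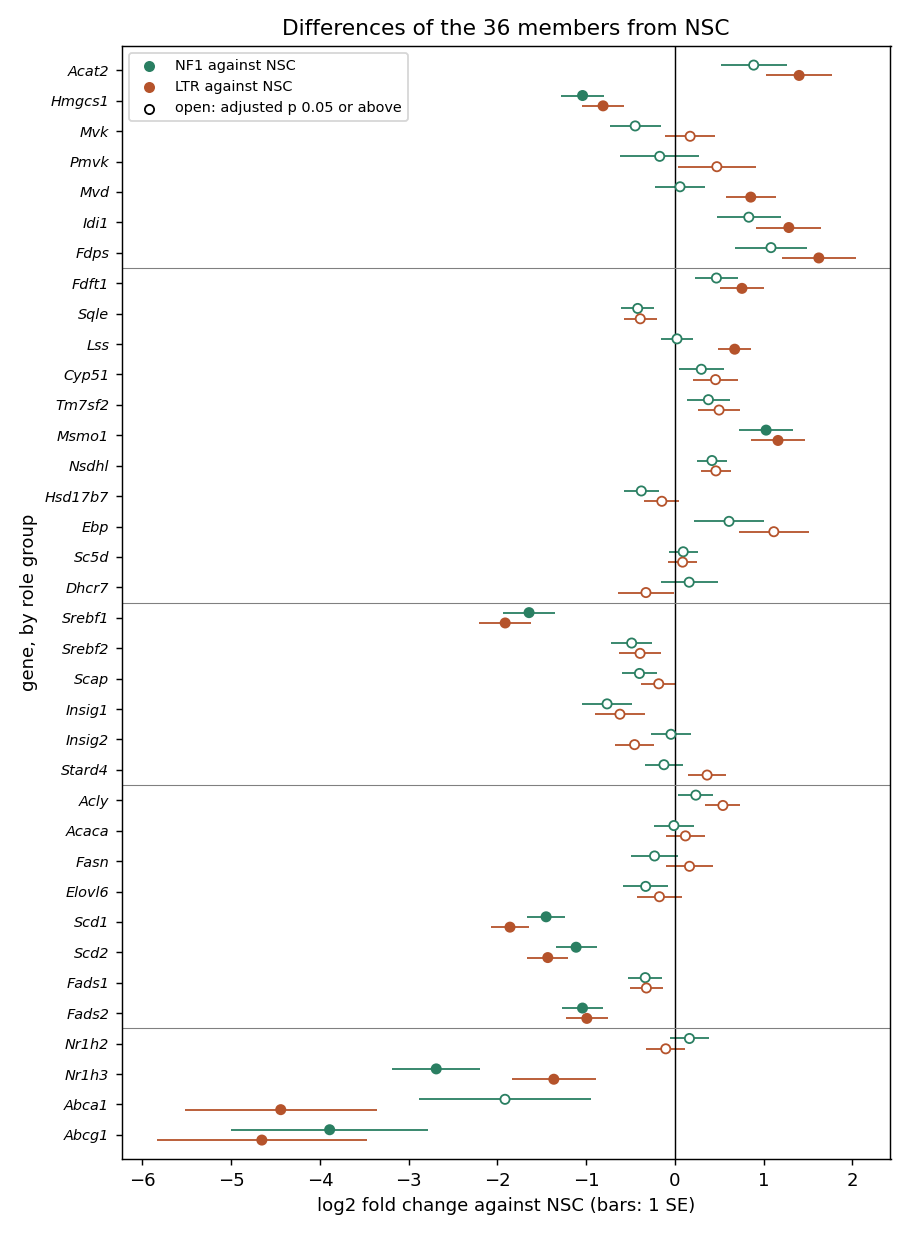
Log2 fold changes of the 36 members against NSC with 1 SE, grouped by role from the mevalonate steps at the top to LXR and sterol export at the bottom; filled points passed an adjusted p of 0.05. Filled points to the right of 0 are Msmo1 for NF1 and 7 sterol synthesis genes for LTR, and those to the left reach -4.44 for Abca1 in LTR. Abcg1 lies further left in LTR (-4.65), but it could be tested only through the NSC libraries.

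Among the 6 genes of SREBP control and sterol transport, Srebf1 was lower in both comparisons, and the other 5 were not called in either. Srebf1, the gene of SREBP-1, which mainly drives fatty acid synthesis genes, had 227, 304 and 147 CPM in libraries labelled NF1, 171, 212 and 178 CPM in LTR libraries and 649, 899 and 566 CPM in NSC libraries. The gene (ENSMUSG00000020538) lies at chr11:60199089-60222581 on the minus strand. Its highest tumour library lay well below the lowest NSC library. The log2 fold change was -1.64 ± 0.29 for NF1-labelled libraries (3.12-fold lower, adjusted p = 0.00558, edgeR) and -1.91 ± 0.30 for LTR libraries (3.76-fold lower, adjusted p = 0.00227), and both calls held under all 18 alternatives. Srebf2, the gene of SREBP-2, which mainly drives cholesterol synthesis genes, had 284, 352 and 214 CPM in libraries labelled NF1, 344, 258 and 307 CPM in LTR libraries and 371, 472 and 349 CPM in NSC libraries. Its log2 fold changes were -0.49 ± 0.23 (adjusted p = 0.155, edgeR) and -0.39 ± 0.23 (adjusted p = 0.210), and without NF1 2 it was called lower in NF1-labelled libraries. The count ratio of Srebf1 to Srebf2 within a library was 0.685 to 0.862 in libraries labelled NF1 and 0.499 to 0.822 in LTR libraries, against 1.62 to 1.90 in NSC libraries, so Srebf1 had fewer counts than Srebf2 in each tumour library and more in each NSC library.

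Insig1, an SREBP-responsive retention protein of the endoplasmic reticulum, had 235, 255 and 266 CPM in libraries labelled NF1 and 235, 315 and 285 CPM in LTR libraries, against 333, 635 and 315 CPM in NSC libraries. NSC 3 stood high, the other NSC libraries were near the tumour libraries, and the log2 fold changes of -0.76 ± 0.28 (adjusted p = 0.0758, edgeR) and -0.62 ± 0.28 (adjusted p = 0.109) were not called. Its relative Insig2 had -0.04 and -0.45, and Scap, the escort that carries SREBPs to the Golgi for cleavage, had -0.40 and -0.18. Stard4, a carrier that moves cholesterol between membranes, had 102, 68.4 and 122 CPM in libraries labelled NF1, 139, 144 and 126 CPM in LTR libraries and 104, 110 and 105 CPM in NSC libraries. LTR libraries lay above NSC libraries by a small margin (0.36 ± 0.21, adjusted p = 0.206, edgeR) and those labelled NF1 spread to both sides (-0.12 ± 0.21, adjusted p = 0.702).

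Of the 8 fatty acid synthesis genes, the desaturase genes Scd1, Scd2 and Fads2 were lower in both comparisons, and the other 5 were called in neither. Scd1, a stearoyl-CoA desaturase that makes oleate from stearate, had 593, 763 and 512 CPM in libraries labelled NF1, 492, 426 and 490 CPM in LTR libraries and 1688, 1845 and 1573 CPM in NSC libraries. The groups were far apart, with log2 fold changes of -1.45 ± 0.21 for NF1-labelled libraries (2.73-fold lower, adjusted p = 0.00266, edgeR) and -1.86 ± 0.22 for LTR libraries (3.63-fold lower, adjusted p = 9.72e-04). Both calls held under all 18 alternatives.

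Scd2, the desaturase that prevails in brain, was the member with the most counts. It had 2294, 3052 and 2196 CPM in libraries labelled NF1, 1962, 1937 and 2147 CPM in LTR libraries and 5389, 6080 and 4845 CPM in NSC libraries. The log2 fold changes were -1.11 ± 0.23 (2.16-fold lower, adjusted p = 0.0100, edgeR) in NF1-labelled and -1.43 ± 0.23 (2.70-fold lower, adjusted p = 0.00271) in LTR libraries, with no overlap with NSC libraries. The call for NF1-labelled libraries was lost with the culture number as a block in the model (adjusted p = 0.0598, edgeR). The count ratio of Scd2 to Scd1 was 3.87 to 4.29 in libraries labelled NF1 and 3.99 to 4.54 in LTR libraries, against 3.08 to 3.29 in NSC libraries. Scd1 (ENSMUSG00000037071, chr19:44394455-44407879, minus strand) and Scd2 (ENSMUSG00000025203, chr19:44293674-44306864, plus strand) lie in 1 gene cluster. The closely related Scd3 and Scd4, with which reads could be shared, stayed under 3 CPM in every library.

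Fads2, the delta-6 desaturase that starts the synthesis of long polyunsaturated fatty acids, had 276, 276 and 156 CPM in libraries labelled NF1, 226, 258 and 249 CPM in LTR libraries and 494, 476 and 487 CPM in NSC libraries. Fads1 and Fads2 are neighbours on chromosome 19, at 10182888 to 10196877 (plus strand) and 10062765 to 10101746 (minus strand). The NSC libraries were nearly level and all tumour libraries lay below them, with log2 fold changes of -1.04 ± 0.23 (adjusted p = 0.0137, edgeR) and -0.99 ± 0.23 (adjusted p = 0.0115). The LTR call was lost without LTR 3 (adjusted p = 0.0548, edgeR). That for NF1-labelled libraries was lost with the culture number as a block in the model (adjusted p = 0.0578, edgeR). Its partner Fads1, the delta-5 desaturase, also lay below NSC in all tumour libraries but by less (-0.33 and -0.32, adjusted p = 0.223 and 0.207, edgeR).

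The enzymes that make and lengthen the chain were not called. Acly, which makes cytosolic acetyl-CoA from citrate, averaged 596 ± 82 CPM in libraries labelled NF1 and 736 ± 22 CPM in LTR libraries, against 506 ± 82 CPM in NSC libraries (SD, n = 3 each), with log2 fold changes of 0.24 ± 0.20 (adjusted p = 0.405, edgeR) and 0.54 ± 0.20 (adjusted p = 0.0584). Fasn, the fatty acid synthase, averaged 663 ± 154, 872 ± 182 and 777 ± 174 CPM in NF1-labelled, LTR and NSC libraries (-0.23 and 0.16, neither called). Acaca, the acetyl-CoA carboxylase that makes malonyl-CoA, had -0.01 and 0.12, and Elovl6, the elongase of palmitate, -0.33 and -0.17.

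Of the 4 genes of LXR and sterol export, Nr1h3 and Abcg1 were lower in libraries labelled NF1, and Nr1h3, Abca1 and Abcg1 in LTR libraries. Abca1, the pump that loads cholesterol and phospholipid onto apolipoproteins, had 29.6, 365 and 15.6 CPM in libraries labelled NF1, 28.2, 22.1 and 20.9 CPM in LTR libraries and 658, 286 and 601 CPM in NSC libraries. The gene (ENSMUSG00000015243) lies at chr4:53030787-53159895 on the minus strand, and all LTR libraries lay far below all NSC libraries. They were 21.7-fold lower (log2 fold change -4.44 ± 1.08, adjusted p = 0.0132, edgeR), a call that held under all 18 alternatives. In libraries labelled NF1 a single library decided the result: NF1 2 had a higher level than NSC 3, the log2 fold change of -1.91 ± 0.97 was not called (adjusted p = 0.178), and without NF1 2 it was -4.49 (adjusted p = 1.87e-04).

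Nr1h3, the gene of LXR-alpha, was scarce throughout, with 0.290, 0.736 and 0.512 CPM in libraries labelled NF1, 1.48, 1.18 and 1.19 CPM in LTR libraries and 2.54, 4.80 and 2.60 CPM in NSC libraries. The 3 groups did not overlap. Its log2 fold change was -2.69 ± 0.50 for NF1-labelled libraries (6.45-fold lower, adjusted p = 0.00642, edgeR), which held under all alternatives, and -1.36 ± 0.47 for LTR libraries (adjusted p = 0.0478), which was lost under 10 of 18, among them without any 1 of the LTR or NSC libraries. Nr1h2, the gene of LXR-beta, was far more abundant per length (23.0, 19.1 and 20.6 CPM per kb in NF1-labelled, LTR and NSC libraries, against 0.258, 0.648 and 1.67 for Nr1h3) and was not called (0.16 ± 0.22 and -0.10 ± 0.22, adjusted p = 0.608 and 0.729, edgeR).

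Abcg1, a transporter that passes cholesterol to lipoproteins, had 3, 10 and 0 counts in libraries labelled NF1, 2, 5 and 0 counts in LTR libraries and 97, 58 and 97 counts in NSC libraries. All tumour libraries lay below all NSC libraries. Because it could be tested only through the group in which it is high, its call is given as a description only. The fitted log2 fold changes were -3.89 ± 1.11 and -4.65 ± 1.18 (SE) for NF1-labelled and LTR libraries, and they became -5.37 without NF1 2 and -5.85 without LTR 2.

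Between the tumour groups, libraries labelled NF1 against LTR libraries, 0 of 36 members were called by edgeR, and 0 of all 15696 genes (0.0%). At an unadjusted p under 0.05 there were 5 members and 1596 genes, and DESeq2 called 0 members and 328 genes. The median log2 fold change of the members was -0.15, beside 0.06 over all genes. All libraries labelled NF1 lay above all LTR libraries for 2 members and below for 5, against 7.21% and 5.24% of all genes. Those above were Scd1 (0.41 ± 0.21) and Scd2 (0.32 ± 0.23), and those below were Mvd (-0.80 ± 0.28, adjusted p = 0.408, edgeR), Lss (-0.65 ± 0.18, adjusted p = 0.338), Stard4 (-0.49 ± 0.21, adjusted p = 0.485), Acly (-0.31 ± 0.20, adjusted p = 0.652) and Nr1h3 (-1.33 ± 0.48, adjusted p = 0.414). In 16 of the 18 sterol synthesis genes the sign was negative, with a median of -0.26. The missing calls do not show that the tumour groups are alike in these genes.

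Sterol synthesis genes were often highest in the same culture of a group. Within the libraries labelled NF1, NF1 3 was highest for 16 of 18 sterol synthesis genes, against 32.1% of all genes, within LTR, LTR 2 for 13 of 18, against 41.0%, and within NSC, NSC 3 for 15 of 18, against 43.3%. Over all 36 members, NSC 3 was highest for 29 and NSC 5 lowest for 26, against 29.2% of all genes, but of the 4 genes of LXR and sterol export NSC 3 was highest for 1 and lowest for 3. Of the 8 fatty acid synthesis genes, 6 were lowest in NF1 3, against 40.1% of all genes, and 7 were lowest in LTR 2, against 40.5%. The libraries that were high for sterol genes also differed from the rest of their group by transcript length. With all genes in 5 classes of equal size by length, the median log2 difference of NF1 3 from the other libraries labelled NF1 was 0.48 in the shortest class and -0.58 in the longest, and that of LTR 2 from the other LTR libraries was 0.41 and -0.38. That of NSC 3 from the other NSC libraries was smaller, at 0.12 and -0.15. The part of length in these rankings was not tested.

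Transcript length also moved with the differences from NSC. The median log2 fold change over all genes of the shortest and the longest class was 0.34 and -0.32 for libraries labelled NF1 and 0.39 and -0.51 for LTR libraries. The sterol genes that were higher in LTR had longest transcripts of 1833 (Mvd) to 6992 bp (Lss), and 4 of them (Idi1, Fdps, Fdft1 and Msmo1) lie in the middle class, where the median of all genes was -0.06. With the length trend of each library taken out, libraries labelled NF1 had 2 members higher (Msmo1 and Acaca) and the same 7 lower, and LTR libraries had 11 higher, the same 7 with Ebp, Acly, Acaca and Fasn, and the same 8 lower. With the GC trend taken out as well, the counts were 0 and 8 for NF1-labelled and 10 and 8 for LTR libraries.

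**Figure D4:**
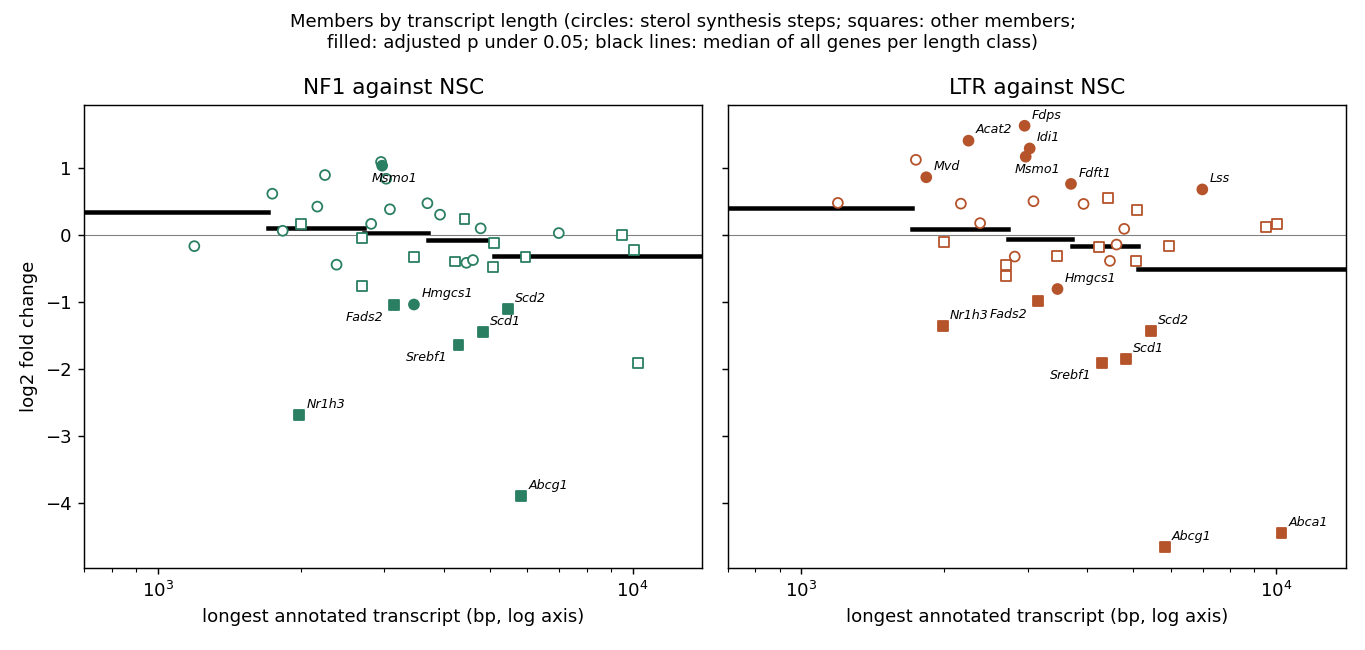
Log2 fold change of each member against NSC over the length of its longest annotated transcript (log axis), for libraries labelled NF1 on the left and LTR on the right. Black lines give the median of all genes in 5 length classes, which falls from short to long, and the 7 sterol genes called higher in LTR (0.67 to 1.62) lie above these lines while Scd1, Scd2 and Srebf1 lie below them.

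Of 42 further genes of the pathway that are no members, 3 were higher and 14 lower in libraries labelled NF1, and 3 higher and 18 lower in LTR libraries, against the same backgrounds of 10.1% and 13.1%, and 14.9% and 20.9%. The higher genes were Erlin1, Npc2 and Acsl3 in both comparisons, an endoplasmic reticulum scaffold, a lysosomal cholesterol carrier and a fatty acyl-CoA synthetase. Elovl5, the elongase that works beside Fads2, averaged 147, 148 and 358 CPM in NF1-labelled, LTR and NSC libraries (log2 fold change -1.28 ± 0.16 and -1.27 ± 0.16, adjusted p = 0.00146 and 0.00114, edgeR). Acss2, which makes acetyl-CoA from acetate, averaged 26.3 and 17.4 CPM in NF1-labelled and LTR libraries, against 86.6 CPM in NSC libraries (-1.72 ± 0.29 and -2.31 ± 0.30). Lipa, the lysosomal acid lipase that frees cholesterol from its esters (-1.26 and -1.78), Abcg4, a sterol exporter related to Abcg1 (-3.26 and -3.49), and Erlin2, which takes part in the turnover of sterol-regulated proteins (-1.27 and -1.49), were lower in both. In the list of fatty acid synthesis and use, 8 of 15 genes were lower in each comparison, while 0 of 4 isoprenoid branch genes were lower in LTR and 1 of 4 in libraries labelled NF1.

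Summed markers of the oligodendrocyte list and of the fibroblast and mural list were lower in all tumour libraries than in NSC libraries. Those of the neural stem cell list overlapped between groups. The 8 neural stem cell markers summed to 11140 to 13140 CPM in libraries labelled NF1 and 6753 to 12600 CPM in LTR libraries, against 12520 to 13210 CPM in NSC libraries, with the abundant Vim and Nes not called. Of these 8, 0 were higher and 2 lower in libraries labelled NF1, against 10.1% and 13.1% of all genes. In LTR libraries 1 was higher (Pax6) and 4 were lower, against 14.9% and 20.9%. The lower counts include Slc1a3 in both comparisons and Hes5 in LTR. These genes could be tested only through the NSC libraries, so their calls are a description only. Slc1a3, chosen as the most extreme after its values were seen, averaged 1.76 CPM in NF1-labelled and 0.068 CPM in LTR libraries, against 771 CPM in NSC libraries. The 9 oligodendrocyte markers, a lineage rich in sterol synthesis, summed to 99.4 to 445 CPM in libraries labelled NF1 and 91.8 to 138 CPM in LTR libraries, against 846 to 1076 CPM in NSC libraries, most of it Olig2 and Cnp, with Sox10, Mag and Mog below 0.2 CPM in each group mean. Fibroblast and mural markers (7 genes, led by Acta2 and Col1a1) summed to 3.30 to 10.3 and 19.3 to 156 CPM in NF1-labelled and LTR libraries, against 1556, 208 and 1953 CPM in NSC 1, 3 and 5. In this list 4 were lower in each comparison, while Col3a1 was higher in LTR libraries, with 152 CPM of the 156 CPM in LTR 1. Among the 4, Acta2 could be tested only through the NSC libraries, so its calls are a description only. Myeloid markers (8 genes, led by Cd68 and Laptm5) summed to 24.1 CPM at most and endothelial markers (5 genes, led by Kdr and Cdh5) to 7.46 CPM, both in NF1 2. Of these, 6 myeloid and 2 endothelial markers had too few counts to be tested, and 0 were lower. Cd68, Laptm5 and Cdh5 were higher in libraries labelled NF1, and Laptm5 and Cdh5 in LTR libraries. Laptm5 and Cdh5 could be tested only through the tumour libraries, so their calls are a description only. The part of these cell types in the differences of the 36 genes was not tested.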

How the data were processed

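The deposited table holds raw counts per gene for 9 libraries, made by the authors with STAR 2.5.2a and HTSeq, and the submitters' processing notes also name DESeq2 1.8.2, GRCm38 and mm10. Which annotation release, counting mode and strand rule applied was not given in the sources used here. NEBNext Ultra, the kit named in the labels' protocols, does not keep the strand. All value columns were used. Counts were fitted in R 4.3.3 with edgeR 4.0.16: TMM scaling, filterByExpr (minimum count 10, 15696 genes left), 1 quasi-likelihood model of 3 groups, Benjamini-Hochberg adjustment over all genes tested. The SE was derived from the F statistic. Transcript lengths, GC content and overlaps are from GENCODE M21, by gene identifier, and where a marker symbol had more than 1 identifier the one with more counts was used. The code was tested on simulated data.

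All 36 members are named. Values in every library were due for the member with the smallest adjusted p in each role group and comparison and for the most abundant one, and those of Acat2, Idi1, Srebf2, Sqle, Fads2, Insig1, Ebp and Abcg1 were added after their values were seen. Of other pathway genes the 4 smallest adjusted p per comparison are named, with the 3 higher genes added. The members and lists were chosen with earlier results of these data known. Alternatives were DESeq2 1.42.0, other scalings, no filter, the 6 libraries of a comparison only, a replicate block, and each library left out. Added after seeing the data were leaving out both NF1 2 and NSC 3, and taking out length and GC trends. Libraries of a group were not copies of each other by a chi-square test of their counts. Replicate numbers in the titles are not stated to pair cultures.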

Additional observations from a re-analysis of the deposited data

How the results depend on the processing

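Calls of 36 members against NSC kept their sign under every alternative run, and scaling by DESeq2 size factors or library totals moved no count of members by over 1.5 times. With each library left out in turn, members called ranged from 5 to 13 for NF1 (0 to 4 higher, 5 to 9 lower) and from 6 to 18 for LTR (0 to 11 higher, 4 to 8 lower), against 8 (1 and 7) and 15 (7 and 8). Other pathway genes called ranged from 11 to 23 for NF1 (0 to 4 higher, 11 to 20 lower) and from 11 to 22 for LTR (0 to 4 higher, 10 to 19 lower), against 17 (3 and 14) and 21 (3 and 18). Fitting only the 6 libraries compared gave 2 members higher for NF1 and 12 for LTR. Without both NF1 2 and NSC 3, 13 members were called for NF1, 5 of them higher, and 11 were higher for LTR. With the length trend taken out, 2 members were higher for NF1 and 11 for LTR, and Acaca, at -0.01 for NF1, came to 0.52 (adjusted p = 0.0427, edgeR), and with the GC trend as well 0 were higher for NF1. No filter left 1 other pathway gene higher for NF1 and 0 for LTR. The cause of these changes was not tested. Same-numbered libraries of different groups deviated from their group means with correlations of -0.185 to 0.121, beside -0.135 to 0.133 for libraries of different numbers. With 3 libraries per group these values cannot decide whether the numbers pair cultures. In a replicate block NSC 5 is alone in its number and has no weight, so the block is not separate from leaving NSC 5 out. The block gave 5 members for NF1 (0 higher), 7 for LTR (1 higher), 10 other pathway genes for NF1 (0 higher) and 11 for LTR (0 higher, 11 lower). Under it the NF1 calls of Msmo1, Scd2 and Fads2 were lost. For LTR it lost Acat2, Hmgcs1, Mvd, Fdps, Fdft1, Lss, Msmo1 and Nr1h3. For NF1 against LTR, 0 members were called under every alternative. Low counts limit Abcg1 and Nr1h3.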
